A study of Homo sapiens with 12 samples.

Results

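The genes described here are 6 replication-dependent histone genes, H1-2, H2AC14, H2BC9, H3C2, H4C8 and H4C11, out of 19775 genes with a probe set of their own on the arrays. They were named from their differences between RNA fractions in earlier work on the same arrays, so those differences are given as descriptions. Calls of the fit over all genes are counted for them once, beside the share of all genes called, and are no independent test of the 6. The comparison of constructs was not used to choose them. The study measured RNA of the human Jurkat line, which derives from a T cell leukaemia, on 12 Affymetrix arrays. Cells had been transduced with a construct encoding miR-21 or with the matching control vector, and 3 RNA fractions were profiled to look for targets of miR-21. The fractions were Total RNA, RNA immunopurified with an antibody to AGO2 (AGO2 IP) and RNA recovered with control IgG (IgG IP). Each of the 6 groups, 3 fractions by 2 constructs, holds 2 arrays, with replicate numbers 1 and 2. All groups were Jurkat cells grown in RPMI with 10% FBS, and all carry one of the 2 vectors, so no untransduced cells are compared. The labels do not say whether the replicate numbers stand for separate cultures, and p-values then measure only the spread between these arrays, which may be technical.

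Replication-dependent histones supply the protein that packages new DNA in S phase. Their genes have no introns and lie in clusters, and their mRNAs end in a conserved stem-loop in place of a poly(A) tail. SLBP binds that stem-loop and takes part in the processing, translation and decay of these mRNAs. AGO2 is the Argonaute protein that carries a microRNA to its target mRNAs, where the bases of the microRNA's seed pair with the target, and miR-21 is abundant in many tumours and in activated T cells.

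The mature sequence of the microRNA under study and the promoters of the 6 genes are shown first, as background. Whether the promoters bear on the differences between fractions was not tested. All sequences were taken from RefSeq, build GRCh38.p14. In the microRNA, which lies at chr17:59841273-59841294 on the plus strand, capitals mark the seed, bases 2 to 8. For each gene the 150 bases directly upstream of the annotated start are given on the gene's strand, and capitals mark matches on either strand to CCAAT (the element that factor NF-Y binds), TATAA (from the core promoter box of that name), ATTTGCAT (the octamer), GGTCCG (part of the H4 promoter element) or AAACACA (an element of H1 promoters).
hsa-miR-21-5p: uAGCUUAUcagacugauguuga
H1-2 (chr6:26056471-26056620, minus strand): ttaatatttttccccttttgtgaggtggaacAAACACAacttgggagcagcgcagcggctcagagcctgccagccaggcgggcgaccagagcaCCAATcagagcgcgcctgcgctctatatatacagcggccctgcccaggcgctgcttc
H2AC14 (chr6:27814778-27814927, minus strand): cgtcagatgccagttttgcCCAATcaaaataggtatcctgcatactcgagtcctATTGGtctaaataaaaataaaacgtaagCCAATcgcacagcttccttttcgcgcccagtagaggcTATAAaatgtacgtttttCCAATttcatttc
H2BC9 (chr6:26251464-26251613, plus strand): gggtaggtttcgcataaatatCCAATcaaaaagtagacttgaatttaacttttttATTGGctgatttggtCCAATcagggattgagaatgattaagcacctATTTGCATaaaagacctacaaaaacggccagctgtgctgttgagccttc
H3C2 (chr6:26032100-26032249, minus strand): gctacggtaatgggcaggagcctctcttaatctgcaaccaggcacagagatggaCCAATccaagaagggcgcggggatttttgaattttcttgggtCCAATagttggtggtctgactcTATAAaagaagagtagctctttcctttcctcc
H4C8 (chr6:26285535-26285684, minus strand): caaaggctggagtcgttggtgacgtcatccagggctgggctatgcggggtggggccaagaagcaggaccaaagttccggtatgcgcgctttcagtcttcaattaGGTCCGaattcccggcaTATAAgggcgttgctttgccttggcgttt
H4C11 (chr6:27823942-27824091, plus strand): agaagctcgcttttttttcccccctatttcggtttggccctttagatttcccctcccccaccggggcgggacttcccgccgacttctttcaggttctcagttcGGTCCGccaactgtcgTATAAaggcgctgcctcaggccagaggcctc

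The H4 genes H4C8 and H4C11 shared the same layout, a GGTCCG match 46 and 47 bases upstream of the start and a TATAA match 29 and 31 bases upstream. The probe sets named for them moved in opposite directions between fractions. The transcript given for the H4C11 probe set belongs to H4C12 in RefSeq, however, and the H4C12 promoter is not shown. The motifs were chosen with the sequences in view, and a match is only a match of letters. Over the 250 bases upstream, CCAAT or its complement was found in 4 of the 6 promoters, in 54 of 62 other replication-dependent histone promoters (87.1%) and in 32.0% of all 35116 promoters. TATAA was found in 5 of the 6 (in H2BC9 244 bases upstream, outside the stretch shown), in 57 of the 62 others (91.9%) and in 18.9% of all. The octamer was found in 2 of the 6, H2BC9 and H2AC14 (the latter 204 bases upstream, outside the stretch shown), in 25 of the 62 others (40.3%) and in 1.63% of all. GGTCCG was found in 2 of the 6, both H4 genes, in 13 of the 62 others (21.0%) and in 9.43% of all. AAACACA was found in H1-2 alone of the 6, in 4 of the 62 others (6.45%) and in 4.82% of all. None of the 5 motifs contains another of them.

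All 6 genes lie on chromosome 6 in the same RefSeq build. H3C2 (26031589 to 26032099), H1-2 (26055740 to 26056470), H2BC9 (26251614 to 26252075) and H4C8 (26285126 to 26285534) lie within 253946 bases of each other. H2AC14 (27814302 to 27814777) follows 1528767 bases further on, and H4C11 (27824092 to 27824480) lies 9314 bases beyond it. H4C8, whose tested probe set read higher in the IP fractions, is 33050 bases from H2BC9, whose probe set read lower. The genes are short, from 389 bases (H4C11) to 731 bases (H1-2), and only 0.324% to 1.2% of 20056 protein-coding genes are shorter than any one of them.

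Each gene is read by 1 probe set except H4C8, which has 2. Paralogs of the core histones are alike in sequence. The probe sets of H2AC14, H2BC9 and H4C11 carry the suffix that marks probes which may cross-hybridise, and those of H3C2 and H4C8 (the higher of its pair) the suffix for probes shared by several transcripts, so a value may include RNA of paralogs. The transcript given for the H4C11 probe set belongs to H4C12 in RefSeq, and the value is named H4C11 here only as the platform annotation names it. A further 8 probe sets list a member among several genes, 5 of them H4C11 among 14 H4 genes, and were not used. Values are log2 expression values after RMA, a method that corrects, normalises and summarises the probes of a set, and levels are not compared between genes. Whether the signal of these genes came from RNA with the stem-loop end or with a poly(A) tail was not measured.

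Arrays of replicate 1 and 2 differed in scale, with array medians of 3.55 to 3.67 and 4.38 to 4.48, and array pairs are therefore taken within a replicate number. AGO2 IP and IgG IP arrays of replicate 2 were close to each other over the tested genes (r = 0.997 for the control vector and 0.992 for miR-21), whereas in replicate 1 they were less so (0.922 and 0.929). The difference between the 3′ and 5′ ACTB probe sets, a sign of RNA integrity, was 1.35 to 1.38 in Total RNA of replicate 1 and 3.18 to 3.53 in that of replicate 2. In AGO2 IP it was 1.97 to 4.0 and 2.08 to 2.58, and in IgG IP 2.08 to 2.18 and 2.57 to 3.48. The hybridisation control bioB read 5.77 to 6.87 in Total RNA of replicate 1 but 8.97 to 11.88 in AGO2 IP and 9.97 to 10.69 in IgG IP, and 4.71 to 5.67 in the 6 arrays of replicate 2. The part of scale, RNA integrity and bioB in the results below was not tested. The labelled amount was 1 ug for Total RNA and 100 ng for the IP fractions, so amount and fraction cannot be told apart. All 9 T cell markers were at or above the level of 4.02 used as a filter, with summed levels of 12.97 to 14.03 in Total RNA, 12.84 to 13.44 in AGO2 IP and 12.85 to 13.64 in IgG IP. Of the measured markers of other cells, 2 of 3 B cell, 1 of 3 monocyte, 1 of 2 erythroid and 2 of 4 epithelial ones reached that level. As means over the 12 arrays these were CD79A (6.56), CD22 (4.16), CSF1R (4.53), HBB (5.44), KRT8 (4.76) and KRT18 (5.95). MS4A1, CD14 and EPCAM were among those that did not.

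H1-2 encodes a linker histone, which binds the nucleosome where DNA enters and leaves, and it had the widest gap between Total RNA and the IP fractions among the 6. In Total RNA its log2 level was 6.09 (control vector) and 5.90 (miR-21) in replicate 1, and 7.97 and 7.32 in replicate 2. In AGO2 IP the same order of arrays gave 4.52, 5.26, 4.65 and 4.84, and in IgG IP 5.54, 5.29, 5.05 and 5.22. All IP arrays lay below all Total RNA arrays, and the higher Total RNA levels of replicate 2 had no counterpart in the IP arrays. Over the 4 array pairs the log2 difference of AGO2 IP from Total RNA was -2.0 ± 1.16 (SD, n = 4), 4.01-fold lower. It was -1.11 in replicate 1 and -2.90 in replicate 2. For IgG IP it was -1.55 ± 1.16 (SD, n = 4), or 2.93-fold lower, with -0.59 and -2.51 in the replicates. Only 0.320% of the 12824 genes tested had a lower difference in AGO2 IP and 0.554% in IgG IP.

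H2AC14 encodes a core histone of the H2A family, which pairs with H2B at the outer faces of the nucleosome. Its Total RNA level was 6.45 and 6.30 (control vector, then miR-21) in replicate 1 and 7.57 and 7.39 in replicate 2. AGO2 IP gave 5.68, 5.38, 6.20 and 6.33, and IgG IP 5.41, 6.04, 6.40 and 6.74. Within each replicate number all IP arrays were below both Total RNA arrays, but across replicates the groups overlapped. The difference was -1.03 ± 0.25 (SD, n = 4) in AGO2 IP, the smallest spread among the 6 there, and -0.78 ± 0.41 in IgG IP.

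H2BC9, the H2B gene of the set, read 6.08 and 5.53 in Total RNA of replicate 1 and 5.90 and 6.25 in replicate 2. In AGO2 IP it read 5.68, 4.68, 5.30 and 4.34, and in IgG IP 5.92, 5.58, 4.96 and 5.09. The miR-21 arrays were the lowest of the AGO2 IP fraction in both replicates, and IgG IP of replicate 1 lay among the Total RNA values. The AGO2 IP difference was -0.94 ± 0.67 (SD, n = 4). The IgG IP difference was -0.56 ± 0.58, made up of -0.06 in replicate 1 and -1.05 in replicate 2, and 1 of the 4 pairs was not lower.

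H3C2 encodes the core histone H3, whose tail carries many of the known histone marks. It read 4.56 and 4.76 in Total RNA of replicate 1 and 5.17 and 5.25 in replicate 2. AGO2 IP gave 3.66, 3.10, 4.29 and 3.98, and IgG IP 3.81, 4.11, 4.26 and 4.15. No IP array reached the lowest Total RNA array, though several IP values lay below the filter level of 4.02. The difference was -1.18 ± 0.37 (SD, n = 4) in AGO2 IP and -0.85 ± 0.20 in IgG IP, where the spread was the smallest of the 6.

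H4C11 encodes histone H4, which pairs with H3. It read 5.90 and 5.71 in Total RNA of replicate 1 and 6.63 and 6.37 in replicate 2. AGO2 IP gave 5.45, 4.75, 5.01 and 4.89, and IgG IP 4.99, 4.93, 5.28 and 5.18. The IP arrays all lay below the Total RNA arrays and among each other. The differences were -1.13 ± 0.53 (SD, n = 4) in AGO2 IP and -1.05 ± 0.26 in IgG IP, 2.18-fold and 2.08-fold lower.

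H4C8 also encodes histone H4, but its RNA was higher in the IP fractions. On its higher probe set it read 3.44 and 3.25 in Total RNA of replicate 1 and 4.13 and 4.51 in replicate 2, in part below the filter level. AGO2 IP gave 4.17, 3.77, 5.48 and 4.58, and IgG IP 4.19, 4.77, 5.80 and 5.51. Within each replicate number every IP array was above both Total RNA arrays, and across replicates the groups overlapped. The difference was 0.67 ± 0.53 (SD, n = 4) in AGO2 IP, 1.59-fold higher, and 1.24 ± 0.43 in IgG IP, 2.36-fold higher. The IgG IP difference was exceeded by 0.990% of the genes tested, the AGO2 IP difference by 10.6%. The lower probe set of H4C8 stayed between 2.57 and 3.72 on all 12 arrays, under the filter level, with differences of 0.46 ± 0.39 and 0.24 ± 0.40.

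**Figure D1:**
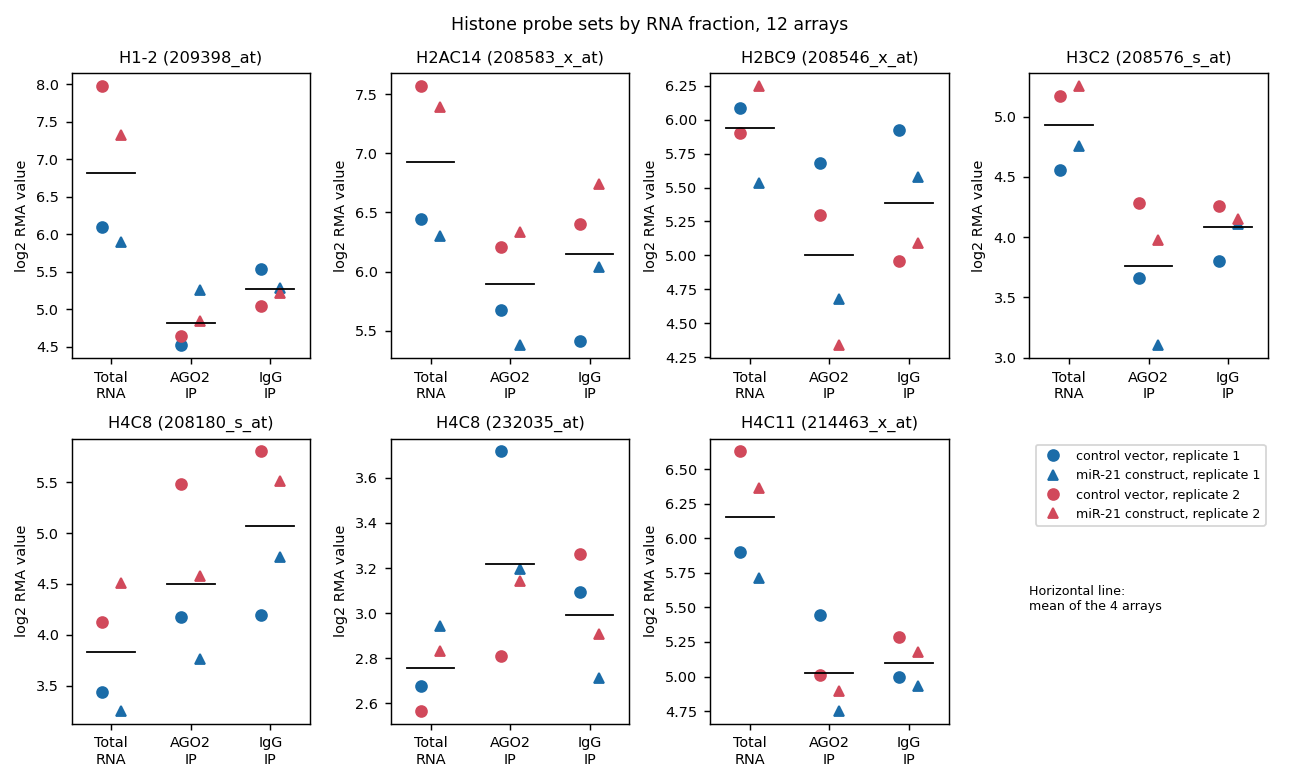
Log2 RMA value (vertical axes, one scale per panel) of the 7 probe sets in Total RNA, AGO2 IP and IgG IP; circles are control vector and triangles miR-21 arrays, blue replicate 1 and red replicate 2, and the line is the mean of 4 arrays. H1-2, H3C2 and H4C11 have no IP array as high as a Total RNA array, and the higher H4C8 probe set runs the other way.

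Set side by side, the 2 comparisons with Total RNA share the Total RNA arrays, so their likeness is no separate evidence. In AGO2 IP 5 of the 6 genes were lower in all 4 pairs, against 23.8% of the genes tested, and 1, H4C8, was higher in all 4, against 14.1%. In IgG IP 4 of the 6 were lower in all pairs (19.3% of the genes tested) and 1 was higher (12.5%). In 3 of the 6, H1-2, H3C2 and H4C11, all 4 arrays of AGO2 IP were below all 4 of Total RNA, as in 7.93% of the genes tested, and the same 3 did so in IgG IP, as in 4.83%. The median difference of the 6 was -1.08 in AGO2 IP and -0.82 in IgG IP, beside -0.05 and -0.01 over all genes tested. These counts and medians describe how the genes were chosen and carry no test.

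Calls came from limma with Benjamini-Hochberg adjustment over the 12824 genes, a gene being called at an adjusted p under 0.05. Without the replicate number in the model 0 of the 6 were called in either comparison, and 0% of all genes, although 1230 genes in AGO2 IP and 437 in IgG IP had an unadjusted p under 0.05. With the replicate number as a block, 5 of the 6 were called lower in AGO2 IP (11.3% of all genes) and 0 higher (4.71%), with 4112 genes at an unadjusted p under 0.05. In IgG IP with the block 0 were called lower (1.62%) and 1 higher, H4C8 (0.296%), with 2524 genes at that unadjusted p. Nothing is read from these counts, since the genes were chosen on the same differences. The lower calls in AGO2 IP were all lost without the miR-21 AGO2 IP array of either replicate, or without either Total RNA array of replicate 2. With a pair of replicate 2 arrays left out that lay close to an array of another fraction (control vector in AGO2 IP, miR-21 in IgG IP), 4 were called lower in AGO2 IP and the H4C8 call in IgG IP was lost, while the medians were -0.90 in AGO2 IP and -0.70 in IgG IP. Leaving out 1 array at a time, the H4C8 call in IgG IP was lost in 9 of 12 cases and stayed only without the control Total RNA array of replicate 1 or either control AGO2 IP array. Lower calls in IgG IP appeared without either control AGO2 IP array or without the control Total RNA array of replicate 1. Each fit with 1 array left out leaves 1 array in a group. Calls over all genes also moved with the array left out, so these changes are not read as a trait of the 6.

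Between the IP fractions the 6 genes differed less. The differences of AGO2 IP from IgG IP were -0.45 ± 0.41 (SD, n = 4) for H1-2, -0.25 ± 0.39 for H2AC14 and -0.39 ± 0.56 for H2BC9. They were -0.33 ± 0.47 for H3C2, -0.57 ± 0.48 for H4C8 and -0.07 ± 0.35 for H4C11. All 6 means were below 0, as were 60.2% of all genes tested, and the spread reached or passed the mean in 4 of the 6. H1-2 and H4C8 were lower in all 4 pairs, 2 of the 6 against 13.1% of the genes tested. The sign for H4C11 turned to 0.14 within replicate 1, and the lower probe set of H4C8 gave 0.22. The median of the 6 was -0.36, beside -0.08 over all genes, and 0% of genes were called with or without the block (limma, 663 and 29 genes at an unadjusted p under 0.05). No gene of the set was higher in AGO2 IP than in IgG IP on its main probe set.

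**Figure D2:**
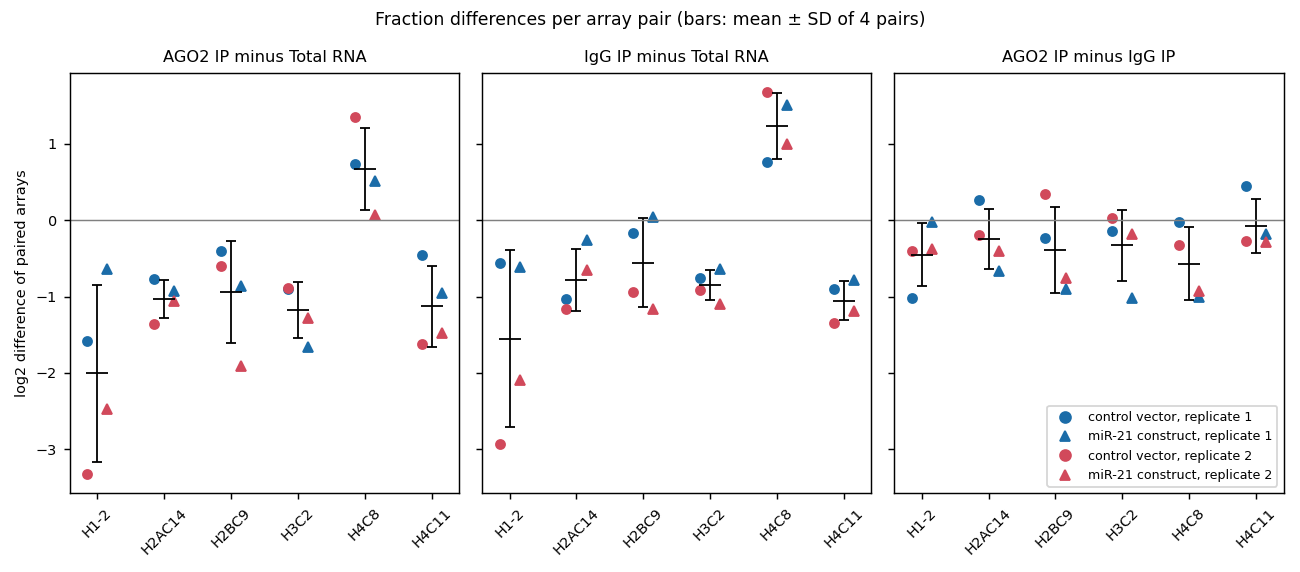
Log2 difference (vertical axis) between paired arrays of the same construct and replicate for each gene, with bars at the mean ± SD of the 4 pairs. H1-2 spreads from -3.33 to -0.64 in AGO2 IP minus Total RNA, all H4C8 points lie above 0 in both comparisons with Total RNA, and all points lie between -1.02 and 0.45 in AGO2 IP minus IgG IP.

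The miR-21 construct was compared with the control vector within each fraction, a contrast the choice of genes did not use. In bulk RNA, fewer cells that express a gene and less of its RNA per cell cannot be told apart between constructs. In Total RNA the 6 differences were -0.42 for H1-2, -0.16 for H2AC14, -0.10 for H2BC9, 0.14 for H3C2, 0.10 for H4C8 and -0.22 for H4C11, with a median of -0.13 beside 0.02 over all genes. In IgG IP they were -0.04, 0.48, -0.10, 0.10, 0.14 and -0.08 in the same order, with a median of 0.03 beside 0.04. In AGO2 IP they were 0.47, -0.09, -0.98, -0.44, -0.65 and -0.41, with a median of -0.42 beside 0.07. None of the 6 was called in any fraction, with or without the replicate block, and 0% of all genes were (limma, adjusted p at or above 0.9997 for each of the 6). Unadjusted p fell under 0.05 for 0, 11 and 4 genes in Total RNA, AGO2 IP and IgG IP without the block, and for 3, 353 and 123 with it.

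H2BC9 in AGO2 IP had the largest construct difference of the 6. It was lower with miR-21 by the pair of values -1.0 in replicate 1 and -0.96 in replicate 2, a mean of -0.98 with a standard error of 0.37 in the blocked limma fit. The unadjusted limma p was 0.0254 with the block and 0.0924 without, and adjusted over all genes 0.9999 and 1.000, so the difference did not pass. In Total RNA the replicates of H2BC9 went opposite ways, -0.55 and 0.35. H4C8 in AGO2 IP was lower in both replicates, by -0.41 and -0.90, with an unadjusted limma p of 0.0581 with the block and an adjusted p of 0.9999. H3C2 (-0.56 and -0.31) and H4C11 (-0.69 and -0.12) lay below 0 in both replicates too, H1-2 lay above 0 (0.74 and 0.19), and H2AC14 was on both sides (-0.30 and 0.13). Whether the construct changed the AGO2 IP difference from Total RNA was tested as an interaction. It was 0.89 for H1-2, 0.07 for H2AC14, -0.88 for H2BC9, -0.58 for H3C2, -0.75 for H4C8 and -0.18 for H4C11, and 0 of the 6 and 0% of all genes were called. The adjusted limma p was 1.000 for each of the 6, or 0.9997 when blocked, with standard errors of 0.37 to 0.81 in the blocked fit, and 0 and 60 genes had an unadjusted p under 0.05. A p that misses the threshold does not show that the construct left these genes alike.

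**Figure D3:**
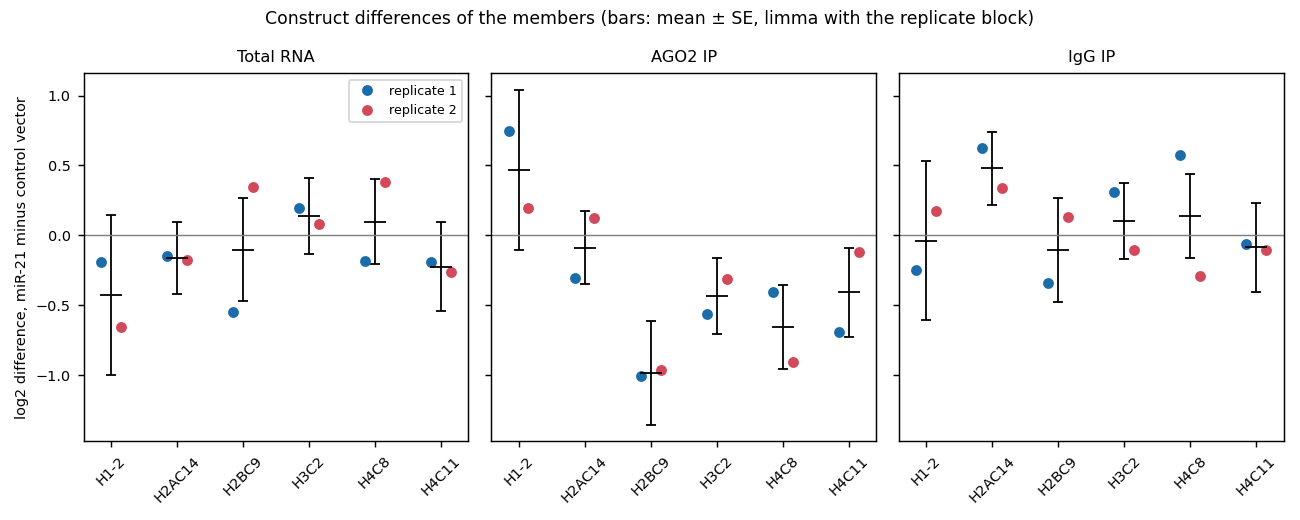
Log2 difference of miR-21 from control vector (vertical axis) for the 6 genes in each fraction, with blue points for replicate 1, red for replicate 2 and bars at the mean ± SE of the limma fit with the replicate block. In AGO2 IP the H2BC9 points lie together near -1, and in Total RNA they lie on both sides of 0.

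Across the 12 arrays, after taking out the mean of each replicate number, the 5 genes other than H4C8 varied together, with Pearson r between 0.690 and 0.904 for each pair of genes. H4C8 correlated with them at -0.686 to -0.249. These correlations describe 12 arrays that share fractions and labelling. The genes were chosen on their differences between fractions, which this centring leaves in. The signs of r therefore follow in part from that choice. The 5 genes outside the histones whose profile was closest to the mean of the 6 were ADCK2 (r = 0.991), CCDC85B (0.991), NTAN1 (0.985), LONP1 (0.979), a mitochondrial protease, and TMEM160 (0.978). Their differences from Total RNA were -0.75 to -1.56 in AGO2 IP and -0.57 to -1.11 in IgG IP. The r of the 6 histone genes with that mean was 0.894 to 0.924, and -0.46 for H4C8. The mean includes each of the 6, so each r is in part that of a gene with itself. The 5 other genes were picked for the highest r among the genes tested, so their higher r follows from that choice.

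Of 69 replication-dependent histone genes listed, 42 have a probe set of their own and 21 passed the filter, the 6 above and 15 others. In AGO2 IP the 15 had a median difference from Total RNA of -0.52 (range -1.21 to 0.39), 12 of them below 0. Without the block 0 of the 15 were called. With it 3 of the 15 were called lower and 0 higher, beside 11.3% and 4.71% of all genes. These were the linker histone gene H1-3 (-1.01, adjusted limma p 0.0337), the H4 gene H4C5 (-0.75, 0.0362) and the H3 gene H3C7 (-1.0, 0.0247), named after their values were seen. All 3 calls were lost without either miR-21 AGO2 IP array or either Total RNA array of replicate 2. The same held without the control AGO2 IP array of replicate 1. Fewer were called without the control Total RNA array of replicate 1 or either control IgG IP array. Calls over all genes also moved with the array left out. In IgG IP the median was -0.27, made up of 0.01 in replicate 1 and -0.46 in replicate 2, and 0 of the 15 were called (limma, with or without the block).

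The 4 of the 15 with the highest signal were H2BC5, H2BC12, H2BC6 and H3C8. H2BC5 was at -1.21 in AGO2 IP (adjusted limma p 0.0606 with the block), but its other probe set gave -0.21. H2BC12 was at -0.74, all of it from replicate 2 (-0.00 in replicate 1 and -1.49 in replicate 2). H2BC6 was at -0.73 and H3C8 at -0.30. In IgG IP the 4 were at -0.65, -0.67, -0.34 and -0.27. All 4 were above 0 in replicate 1 (0.33, 0.02, 0.23 and 0.18) and below 0 in replicate 2 (-1.64, -1.37, -0.91 and -0.71). The other probe set of H2BC5 gave 0.29 in IgG IP.

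Histone genes listed as having polyadenylated mRNAs were set beside the replication-dependent ones. Whether each of these mRNAs was polyadenylated in these cells was not measured. Of 12 listed, 9 were tested, with a median of -0.42 in AGO2 IP and -0.15 in IgG IP. H2AZ2, a variant H2A gene, was called higher with the block in AGO2 IP (0.89, adjusted limma p 0.0309) and IgG IP (1.19, 0.0340), while its 3 other probe sets gave -0.60 to -0.41 and -0.53 to -0.36, so the probe sets disagreed in sign. H1-10, a linker histone variant named after its value was seen, was called lower in AGO2 IP (-0.85, 0.0337). Of all genes 4.71% were called higher and 11.3% lower in AGO2 IP, and 0.296% higher in IgG IP. H2AZ1 was at -0.42 and -0.17, MACROH2A1 at -0.43 and -0.04, and H2AX, the variant phosphorylated at DNA breaks, at -0.87 and -0.56, none of them called. The H2AX values came mostly from replicate 2, with -0.09 and -1.65 in the replicates of AGO2 IP and 0.33 and -1.44 in those of IgG IP. Its other probe sets gave -0.44 to -0.06 in AGO2 IP and -0.29 to 0.16 in IgG IP. The differences between the lists were not tested.

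**Figure D4:**
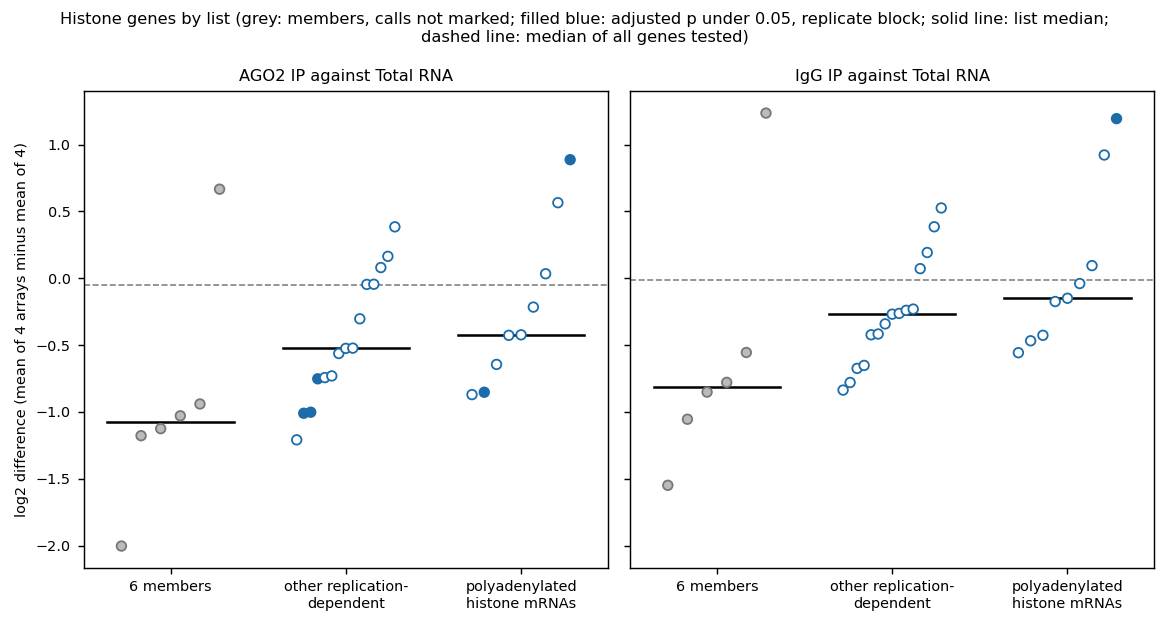
Log2 difference from Total RNA (vertical axis) of each tested histone gene in AGO2 IP (left) and IgG IP (right), in the 6 genes (grey, calls not marked since they were chosen on these differences), 15 other replication-dependent genes and 9 listed as having polyadenylated mRNAs. Filled blue points are called with the replicate block, solid lines are list medians and the dashed line is the median of all genes tested, and the 6 genes' medians of -1.08 and -0.82 lie lowest.

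SLBP, the stem-loop binding protein, was at -0.60 in AGO2 IP (-1.05 and -0.14 in the replicates, adjusted limma p 0.222 with the block) and -0.19 in IgG IP. Its Total RNA levels were 10.54 and 10.46 in replicate 1 and 11.72 and 11.88 in replicate 2, and those in AGO2 IP 8.97, 9.92, 11.90 and 11.43. Of 25 tested genes for histone mRNA transcription, processing and decay, 1 was called higher and 4 lower in AGO2 IP with the block, with a median of -0.35. These counts are near the shares over all genes, 4.71% higher and 11.3% lower. The first was SNRPF, an Sm core protein, at 1.06 (adjusted limma p 0.0187) and 1.47 in IgG IP (0.0144), where it was the 1 call of the list and 0.296% of all genes were called higher. The other Sm genes among the 4 with the highest signal lay near 0 in AGO2 IP, SNRPE at -0.07, SNRPG at -0.03 and SNRPD3 at 0.07. The 4 lower genes, named after their values were seen, were SNRPB (-0.97), SRRT (-0.70), TUT7 (-0.92), a terminal uridylyltransferase, and UPF1 (-0.92), an RNA helicase of mRNA decay. Of 19 tested histone chaperone genes 0 were called higher and 2 lower in AGO2 IP, ATRX (-1.72) and SUPT16H (-1.0), named after their values were seen, and 1 lower, ATRX (-1.53), in IgG IP. The share of all genes called lower was 11.3% in AGO2 IP, close to that count, and 1.62% in IgG IP. The 4 chaperone genes with the highest signal were not called, SET at 0.05, NAP1L1 at -0.35, RBBP4 at -0.38 and NASP at 0.59, the last split between -0.46 in replicate 1 and 1.63 in replicate 2. No gene of these lists was called for the construct in any fraction, where limma called 0% of all genes.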

How the data were processed

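The deposited values are log2 expression values made by the authors with RMA, per the submitters' processing notes, from Affymetrix arrays of 54675 probe sets; whether all 12 arrays were normalised together is not given in the sources used here. No scanner intensities were used, and arrays have no read depth, so their number limits the precision. Probe sets with 1 gene symbol (41091) were kept, the one with the highest mean over the 12 arrays stood for its gene, and the 12824 of 19775 genes at or above the median of all probe sets that are not controls (4.02) were tested.

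Groups came from the sample titles. limma 3.58.1 in R 4.3.3 (lmFit, eBayes) fitted 6 group means on all 12 arrays, with Benjamini-Hochberg adjustment over the genes tested, separately in each of 7 contrasts. The replicate number was added as a block in a further fit. Same-numbered arrays deviated together in all 15 pairs of groups (r 0.468 to 0.873), which is where the pairing comes from. The fit was tested on simulated data. The members and lists were chosen with earlier results of these data known. Named are the 6 genes, SLBP, the 4 genes of each list with the highest mean, the 5 closest profiles, and called list genes chosen after their values were seen. Alternatives were other scaling, probe set and filter choices and leaving out arrays. Promoters and gene positions came from RefSeq tables, read with Python 3.11.15.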

Additional observations from a re-analysis of the deposited data

How the results depend on the processing

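The medians of the 6 genes kept their direction under every alternative run. The genes were chosen on these differences in the same arrays, so the kept direction is no separate evidence. AGO2 IP against Total RNA (-1.08) ranged from -1.31 to -0.86 when 1 array was left out and was -0.88 after quantile normalisation. IgG IP against Total RNA (-0.82) ranged from -1.03 to -0.62 and was -0.71. AGO2 IP against IgG IP (-0.36) ranged from -0.46 to -0.19. H4C11 in AGO2 IP against IgG IP (-0.07) turned to 0.10 with the replicate block when a pair of replicate 2 arrays close to another fraction's array (control vector in AGO2 IP, miR-21 in IgG IP) was left out, to 0.14 within replicate 1, and ranged from -0.28 to 0.14 when 1 array was left out, with the sign turned only without the replicate 2 control vector array of either IP. The cause was not tested.

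The replicate block raised the calls from 0 to 2051 genes in AGO2 IP and from 0 to 246 in IgG IP against Total RNA. With 1 array left out these counts ran from 2 to 3051 and from 3 to 563, and without that pair of arrays the count for IgG IP was 51. Median centring or quantile normalisation without the block called 1 gene in each. The block changed no construct call. Of 716 construct differences of the 6 genes recomputed, 60 changed sign and 0 were called. Averaging probe sets left 5 of the 6 genes above the filter, H4C8 falling below it. The 2 arrays a group limit the precision of the construct differences, and H3C2 and H4C8 have values near the filter level.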
